A study of Mus musculus with 12 samples.

Results

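The genes described here are 10 genes for calcium-regulated membrane proteins and the cytoskeleton that lies beneath them: the S100 genes S100a4, S100a6, S100a10 and S100a11, the annexin genes Anxa1, Anxa2, Anxa5 and Anxa6, the intermediate filament gene Vim and the giant scaffold gene Ahnak. They are 10 of the 56691 genes in the count table. They were chosen by family name together with their read counts across the 4 treatment groups, with earlier results of these data known, so the differences between groups given for them are a description of the genes picked and not independent evidence that such genes respond. S100 proteins are small EF-hand proteins, most of which bind calcium, and annexins bind acidic phospholipids in a calcium-dependent way. S100a10 (p11) pairs with annexin A2 into a complex that also binds Ahnak at the plasma membrane, S100a11 is a partner of annexin A1, and vimentin is the main cytoplasmic intermediate filament of lymphocytes. Memory and effector T cells are known to carry more of several of these transcripts than naive T cells do.

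RNA was measured in splenic CD4+ T cells from 12 Tg4 Nr4a3-Tocky Il10-GFP mice, which carry a transgenic T cell receptor specific for a myelin basic protein (MBP) peptide, a fluorescent Timer reporter under Nr4a3 control and a green reporter of Il10. The strain background is not given in the sources used here. The mice were of both sexes and typically 6 to 8 weeks old. Each received 4 mg/kg of [4Y]-MBP peptide under the skin, an antibody injection of 0.5 mg into the peritoneum 24 h later, and a rechallenge with 0.4 mg/kg of peptide in the other flank 30 min after the antibody, and the spleen was taken 12 h after the rechallenge. The 4 groups of 3 mice differed in the antibody: an isotype pool of rat IgG1 and rat IgG2a, anti-PD-L1 from clone MIH5, the Lag3-blocking antibody C9B7W (anti-Lag3), or both blocking antibodies together, called combination blockade (CB). PD-L1 is the ligand of the inhibitory receptor PD-1, and Lag3 is an inhibitory receptor that binds MHC class II. Cells positive for both the Blue and the Red form of the Timer protein were sorted in every group, so the gate took T cells that had signalled through the receptor, and cells that had not were outside the gate in all 4 groups. In mice treated the same way, the paper reported the largest share of such cells with CB and the smallest with isotype. The gate therefore took different fractions of the CD4+ T cells, and what this adds to the differences was not tested. Sorting was done on 4 mice at a time with a different CD4 antibody dye for each treatment, so the dye and the treatment cannot be told apart, and the labels do not say which mice were sorted together. Libraries were 3′ mRNA libraries, which count the ends of transcripts.

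Reads assigned to genes numbered 16449370 to 22151025 per library (median 19176439). Values are given as counts per 1000000 reads (CPM) after scaling of library sizes by the trimmed mean of M values (TMM), as mean ± SD over the 3 mice of a group. Fold changes, standard errors (SE) and adjusted p-values come from a single edgeR quasi-likelihood fit to all 12 libraries over the 15138 genes with at least 30 reads in all, with Benjamini-Hochberg adjustment over all of them, and a gene is called when its adjusted p is under 0.05. All 10 members passed the 30-read minimum. In bulk RNA of this kind, fewer cells expressing a gene and less RNA per cell cannot be told apart.

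The members lie on 5 mouse chromosomes (GRCm38, GENCODE M21 gene spans). On chromosome 3, S100a4 (90603771 to 90606045) and S100a6 (90612882 to 90624181) are 6836 bases apart on the plus strand, with S100a5 between them. Farther along the same chromosome, S100a11 (93520488 to 93526287) and S100a10 (93555080 to 93564643) are 28792 bases apart, also on the plus strand. Anxa5 is on chromosome 3 as well (36448923 to 36475894, minus strand). Vim is on chromosome 2 (13573927 to 13582826, plus strand), Anxa2 on chromosome 9 (69453620 to 69491795, plus strand) and Anxa6 on chromosome 11 (54979108 to 55033445, minus strand). Ahnak (8989284 to 9076914, plus strand) and Anxa1 (20373428 to 20390944, minus strand) are both on chromosome 19. Of their neighbours, S100a5 had 11 reads over the 12 libraries, and the annotated genes that overlap a member and the pseudogene S100a11-ps had 0 reads.

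RefSeq start sites (GRCm38.p6) were matched by symbol for 8 of the 10 members, all but S100a10 and Anxa6, and the 250 bases before each were searched on both strands for 4 short motifs. The TATA box TATAAA was found in 4 of the 8 windows (S100a4, Anxa1, Anxa2 and Vim) and in 12.4% of all 32851 windows of that length. The AP-1 motif TGANTCA was found in 2 of 8, Anxa2 and S100a11, and in 6.75% of all windows. The NFAT core GGAAA was found in 5 of 8 and in 55.6% of all, and the KLF-type motif CACCC in 5 of 8 and in 52% of all. Matches of different motifs overlapped at 1 place in the 8 windows. AP-1 and NFAT are among the factors through which T cell receptor signals reach promoters, but a match of letters is a description of these windows, not a site or a cause. The promoters of 4 members that were lower in CB than in isotype are printed for comparison, cut where the first GENCODE exon begins, with AP-1 matches in capitals. They are Anxa2 (chr9:69453433-69453619) and S100a11 (chr3:93520246-93520487), which hold the AP-1 motif, beside S100a6 (chr3:90612644-90612881) and Ahnak (chr19:8989034-8989283), which do not. All 4 are on the plus strand and are written 5′ to 3′.
Anxa2: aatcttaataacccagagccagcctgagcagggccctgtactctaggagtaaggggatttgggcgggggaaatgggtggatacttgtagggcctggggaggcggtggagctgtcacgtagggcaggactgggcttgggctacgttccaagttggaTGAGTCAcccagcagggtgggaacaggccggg
S100a11: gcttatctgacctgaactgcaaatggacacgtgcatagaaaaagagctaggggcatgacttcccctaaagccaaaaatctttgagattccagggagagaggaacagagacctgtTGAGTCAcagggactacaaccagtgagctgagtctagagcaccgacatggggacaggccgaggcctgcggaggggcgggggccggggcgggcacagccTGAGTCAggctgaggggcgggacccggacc
S100a6: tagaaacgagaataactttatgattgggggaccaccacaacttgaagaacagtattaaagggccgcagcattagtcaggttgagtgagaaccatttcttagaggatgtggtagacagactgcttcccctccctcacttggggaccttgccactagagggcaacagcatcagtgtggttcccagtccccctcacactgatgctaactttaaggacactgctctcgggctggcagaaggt
Ahnak: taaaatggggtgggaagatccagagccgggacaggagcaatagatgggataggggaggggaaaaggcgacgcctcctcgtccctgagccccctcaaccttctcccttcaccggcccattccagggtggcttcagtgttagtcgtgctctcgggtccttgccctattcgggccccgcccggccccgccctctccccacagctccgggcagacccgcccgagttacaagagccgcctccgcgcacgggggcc
The 2 AP-1 matches of S100a11 begin 136 and 38 bases before its RefSeq start, and the match of Anxa2 begins 95 bases before. The windows of Vim and Anxa1 lie wholly inside exons that GENCODE annotates and are not printed.

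The main question was how these transcripts differed between CB and isotype in sorted cells that had already responded to peptide. Vim, Ahnak, Anxa2, Anxa6, S100a6, S100a10 and S100a11 were all lower in CB than in isotype, by between 0.82 and 1.17 on the log2 scale, which is 44.5% to 56.8% of the isotype level. None of the 10 members was called higher. In this comparison 1.96% of all genes tested were called lower and 2.33% higher. Over the 9 members other than Anxa1 the median log2 fold change was -0.94, and over all genes tested it was 0. CB had the lowest mean of the 4 groups in all 9 of those members, and isotype the highest in 7 of them, with anti-Lag3 highest for S100a6 and anti-PD-L1 highest for S100a4.

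**Figure D1:**
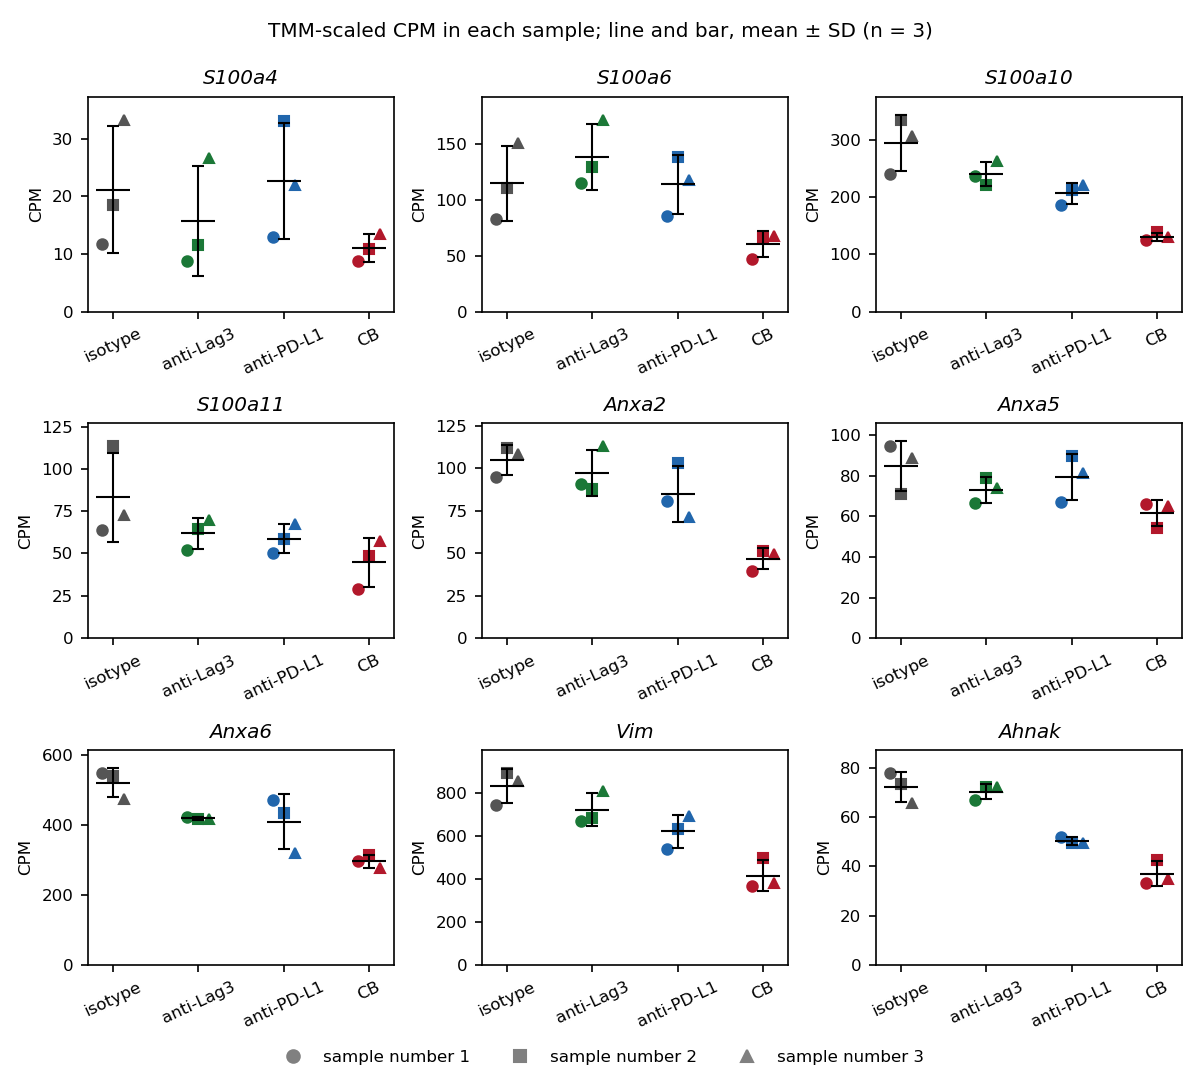
TMM-scaled CPM of 9 members in each of the 12 libraries (vertical axes, each starting at 0), by treatment group (horizontal axis). Points are single mice with their sample number as the symbol, and black lines and bars are the mean ± SD of 3 mice. CB lies at the bottom of every panel, and its points overlap those of isotype for S100a4 but not for the other 8.

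Vim had 742, 892 and 856 CPM in the 3 isotype mice and 368, 497 and 378 CPM in the 3 CB mice. The highest CB mouse was well below the lowest isotype mouse. The means were 829.9 ± 78.4 and 414 ± 71.7 CPM (SD, n = 3 each), a log2 fold change of -1.002 (SE 0.11, edgeR adjusted p = 4.05e-06). Anti-PD-L1 mice had 537, 629 and 693 CPM and anti-Lag3 mice 671, 682 and 809 CPM. The order of the means from low to high was CB, anti-PD-L1, anti-Lag3, isotype. Anti-PD-L1 overlapped anti-Lag3, and anti-Lag3 overlapped isotype, while all anti-PD-L1 mice were below all isotype mice and all CB mice were below the other 3 groups.

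Ahnak, whose product is a scaffold of the membrane skeleton that has been tied to calcium entry in T cells, had 78.0, 73.3 and 65.7 CPM in isotype mice and 33.2, 42.7 and 35.1 CPM in CB mice. The log2 fold change was -0.97 (SE 0.15, edgeR adjusted p = 2.87e-04). The single antibodies divided for this gene: anti-Lag3 mice had 67.0, 72.2 and 72.1 CPM, inside the isotype range, and anti-PD-L1 mice had 52.1, 49.4 and 49.5 CPM, below every isotype and every anti-Lag3 mouse. The direct comparison of the single antibodies gave -0.48 (SE 0.15), which was not called (edgeR adjusted p = 0.802).

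Anxa2 encodes the annexin that holds S100a10 at the membrane. Its level was 95.1, 112 and 108 CPM in isotype mice, 80.7, 103 and 71.1 CPM with anti-PD-L1, 91.0, 87.7 and 113 CPM with anti-Lag3, and 39.8, 51.2 and 49.6 CPM in CB. Isotype and both single-antibody groups overlapped one another, and CB stood below all of them. Against isotype the log2 fold change in CB was -1.17 (SE 0.16, edgeR adjusted p = 3.68e-05).

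S100a10 had 241, 335 and 307 CPM in isotype mice, 186, 213 and 222 CPM with anti-PD-L1, 237, 222 and 263 CPM with anti-Lag3, and 125, 138 and 129.9 CPM in CB. CB was below every other mouse, and anti-PD-L1 was below every isotype mouse. The log2 fold change in CB against isotype was -1.17 (SE 0.12, edgeR adjusted p = 1.83e-06), so the transcripts of both partners of the annexin A2 complex fell by 1.17. Of the 9 other members, S100a10 followed Vim most closely: the root mean square difference of their centred log2 CPM over the 12 libraries was 0.10, against 0.17 for Ahnak, 0.20 for Anxa2, 0.26 for Anxa6, 0.27 for S100a11, 0.30 for S100a6, 0.33 for Anxa5 and 0.56 for S100a4.

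S100a6 (calcyclin) spread more within groups. Isotype mice had 83.3, 110 and 151 CPM, anti-PD-L1 mice 86.1, 139 and 118 CPM, anti-Lag3 mice 115, 129.9 and 172 CPM, and CB mice 47.6, 67.2 and 67.4 CPM. Neither single-antibody group left the isotype range on the low side, and CB was below every other mouse. The log2 fold change in CB against isotype was -0.92 (SE 0.20, edgeR adjusted p = 0.00473).

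S100a11, the annexin A1 partner, had 63.8, 113 and 72.7 CPM in isotype mice, 50.2, 58.3 and 67.6 CPM with anti-PD-L1, 51.9, 64.3 and 69.7 CPM with anti-Lag3, and 28.9, 48.5 and 57.2 CPM in CB. The difference rested partly on the highest isotype mouse and the lowest CB mouse. With all mice the log2 fold change was -0.89 (SE 0.22, edgeR adjusted p = 0.0137). It was -0.60 (edgeR adjusted p = 0.174) without isotype replicate 2 and -0.65 (edgeR adjusted p = 0.106) without CB replicate 1, and the gene was then not called.

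Anxa6, a large annexin with a doubled core that takes part in membrane and cholesterol traffic, had 547, 539 and 473 CPM in isotype mice, 469.9, 434 and 319 CPM with anti-PD-L1, 422, 415 and 416 CPM with anti-Lag3, and 297, 313 and 276 CPM in CB. Both single-antibody groups lay between isotype and CB with no overlap with either. The log2 fold change in CB against isotype was -0.82 (SE 0.11, edgeR adjusted p = 4.69e-05).

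Anxa5, whose protein binds exposed phosphatidylserine, had the smallest difference of the 9. Isotype mice had 94.6, 71.0 and 88.7 CPM and CB mice 66.0, 54.2 and 65.1 CPM, so the groups did not overlap, but the log2 fold change of -0.46 (SE 0.15, 95% interval -0.77 to -0.14 unadjusted) was not called (edgeR adjusted p = 0.0971). S100a4, which binds non-muscle myosin, had 11.7, 18.4 and 33.2 CPM in isotype mice, 13.01, 33.0 and 21.9 CPM with anti-PD-L1, 8.81, 11.6 and 26.6 CPM with anti-Lag3 and 8.70, 10.9 and 13.4 CPM in CB. Its mice varied up to several-fold within a group and overlapped between groups, and the log2 fold change of -0.94 in CB against isotype had an SE of 0.40 (edgeR adjusted p = 0.242). Anxa1 (lipocortin) was near the limit of detection, with 66 reads over the 12 libraries: 26, 0 and 0 reads with anti-PD-L1, 1, 0 and 32 reads with anti-Lag3, 0, 6 and 1 in CB, and 0 in all 3 isotype mice. No fold is given for it.

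In all, 8 members had CB mice entirely below the isotype mice, all but S100a4 and Anxa1, and 9.62% of all genes tested did so. Within each of the 3 sample numbers the CB mouse was below the isotype mouse for the 9 members other than Anxa1, by 0.35 to 1.30 in log2 CPM. Where the groups did not overlap this order was fixed, so only S100a4 could have differed. CB was also below the anti-PD-L1 and the anti-Lag3 mouse of the same number, though the smallest differences were -0.03 and -0.01. In each of those comparisons 7 members did not overlap, so only S100a4 and S100a11 could have differed. The numbers were not taken as pairs.

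**Figure D2:**
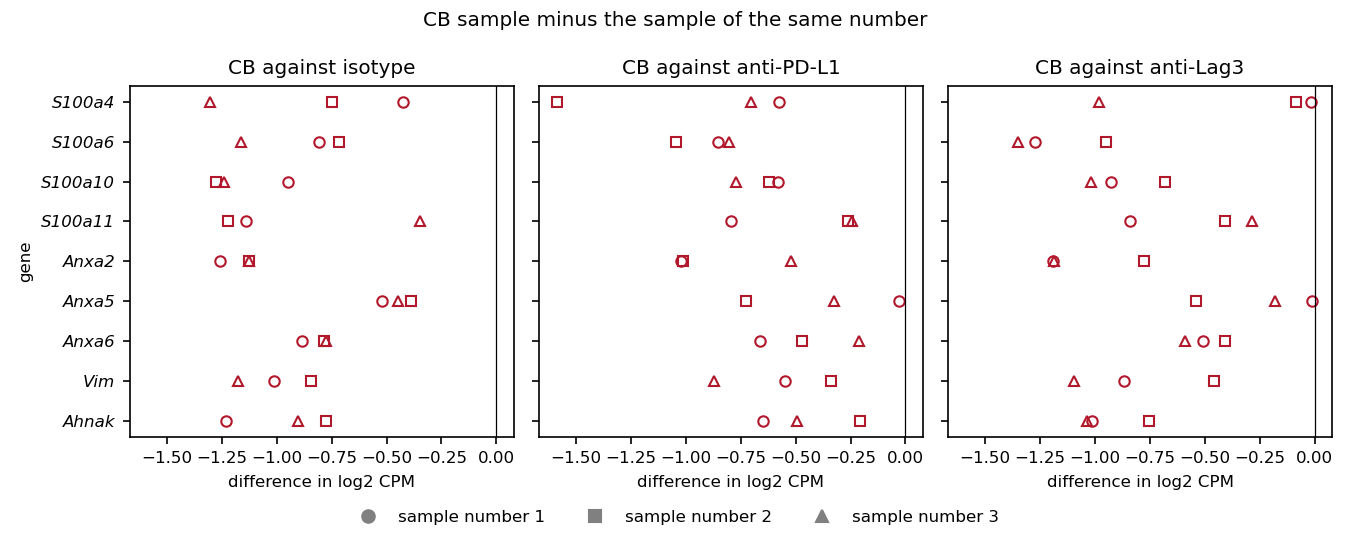
Difference in log2 CPM between the CB mouse and the mouse of the same sample number in isotype, anti-PD-L1 or anti-Lag3 (horizontal axes), for 9 members (vertical axis), with the sample number as the symbol. All 81 points lie to the left of 0, the closest being Anxa5 and S100a4 in number 1. For members whose groups did not overlap, that side was fixed.

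The single antibodies were compared with isotype to see what each did on its own. By edgeR neither antibody alone gave a called member, and for anti-PD-L1 and anti-Lag3 in turn, over all genes tested 0.033% and 0% were called. At an unadjusted p under 0.05 the count was 5 members with anti-PD-L1 (S100a10, S100a11, Anxa6, Vim and Ahnak) and 2 with anti-Lag3 (S100a10 and Anxa6), all lower, where 4.03% and 2.3% of all genes were lower at that level. DESeq2's Wald test against 0 called 2 members with anti-PD-L1, S100a10 (DESeq2 adjusted p = 0.0175) and Vim (at the threshold, DESeq2 adjusted p = 0.05 after rounding), and 0 with anti-Lag3, and this test called 0.37% and 0.0595% of all genes. The same pair of members was called by edgeR with anti-PD-L1 when no read minimum was set (edgeR adjusted p = 0.0131 for each, 0.193% of all genes). With the replicate number as a block, edgeR also called S100a10 (adjusted p = 0.0301) and Vim (adjusted p = 0.0216), and 0.152% of all genes. The median log2 fold change of the 9 members other than Anxa1 was -0.35 for anti-PD-L1 alone and -0.21 for anti-Lag3 alone. Mice given anti-PD-L1 lay entirely below the isotype mice for 4 members, S100a10, Anxa6, Vim and Ahnak (6.46% of all genes did so), and mice given anti-Lag3 for Anxa6 (4.81% of all genes).

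With anti-PD-L1 the log2 fold changes were -0.51 for S100a10 (SE 0.12, edgeR adjusted p = 0.206), -0.42 for Vim (SE 0.11, edgeR adjusted p = 0.282), -0.52 for Ahnak (SE 0.15, edgeR adjusted p = 0.335) and -0.35 for Anxa6 (SE 0.11, edgeR adjusted p = 0.375). S100a6 was level in this comparison, at -0.01 with a 95% interval of -0.41 to 0.39. With anti-Lag3 the value of S100a6 was 0.27 (95% interval -0.12 to 0.67), that of Ahnak -0.04 (-0.35 to 0.27) and that of Vim -0.20 (-0.43 to 0.03). These intervals are not adjusted for the number of genes, and both comparisons share the isotype mice with the comparison of CB and isotype.

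**Figure D3:**
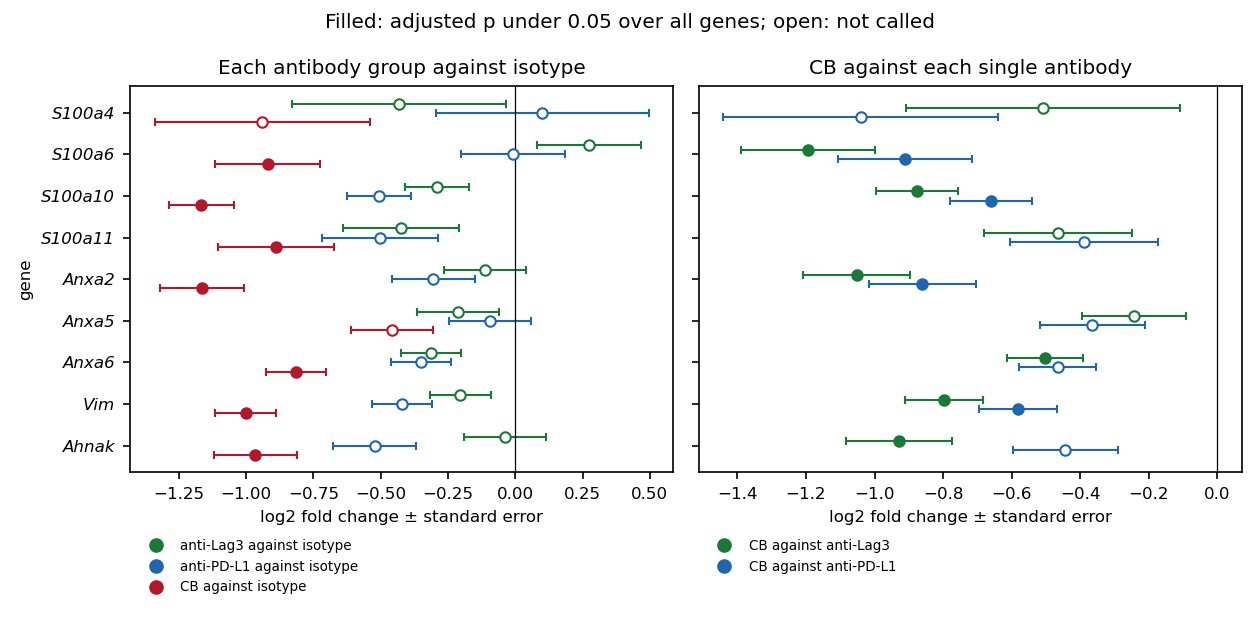
Log2 fold changes of 9 members with 1 standard error to each side (horizontal axes). The left panel sets anti-Lag3, anti-PD-L1 and CB against isotype, the right panel sets CB against each single antibody, and filled points are called (adjusted p under 0.05 over all genes). The 7 filled points on the left all belong to CB.

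Comparing CB with each single antibody asked what the second antibody added. These comparisons share the CB mice with the comparison above. Against anti-PD-L1, 4 members were called lower, S100a6, S100a10, Anxa2 and Vim, where 0.165% of all genes were, and the median of the 9 members was -0.58. S100a6 fell by 0.91 (SE 0.19, edgeR adjusted p = 0.0323), Anxa2 by 0.86 (SE 0.16, edgeR adjusted p = 0.0131), S100a10 by 0.66 (SE 0.12, edgeR adjusted p = 0.0131) and Vim by 0.58 (SE 0.11, edgeR adjusted p = 0.0204). Anxa6 was at -0.47 (edgeR adjusted p = 0.0636) and Ahnak at -0.44 (edgeR adjusted p = 0.308). The mice did not overlap for 7 members, all but S100a4, S100a11 and Anxa1, as for 5.75% of all genes. The calls depended on single libraries, as did those of all genes. All 4 were lost without anti-PD-L1 replicate 2, CB replicate 1 or CB replicate 3. In turn 5, 15 and 4 of all genes were then called, against 56 with all libraries. The log2 fold changes of the 4 members lay between -0.99 and -0.50 in those fits. Without CB replicate 2 or anti-PD-L1 replicate 3, 3 members were called, and 31 and 35 of all genes. In the last case Anxa6 was called instead (-0.61, edgeR adjusted p = 0.00541) of S100a6 and Vim.

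Against anti-Lag3, 6 members were called lower in CB, S100a6, S100a10, Anxa2, Anxa6, Vim and Ahnak, where 0.304% of all genes were, and the median of the 9 members was -0.80. S100a6 fell by 1.19 (SE 0.20, edgeR adjusted p = 0.00173), Anxa2 by 1.05 (SE 0.16, edgeR adjusted p = 5.89e-04) and Ahnak by 0.93 (SE 0.15, edgeR adjusted p = 0.00194). S100a10 fell by 0.88 (SE 0.12, edgeR adjusted p = 1.81e-04), Vim by 0.80 (SE 0.11, edgeR adjusted p = 3.03e-04) and Anxa6 by 0.50 (SE 0.11, edgeR adjusted p = 0.0258). The mice did not overlap for 7 members, the 6 called and Anxa5, as for 7.09% of all genes. The call of Anxa6 was lost without any of the 3 anti-Lag3 replicates and without CB replicate 1 or 3, at adjusted p-values of 0.0855 to 0.175, and the other 5 calls held without each library in turn.

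Whether CB departed from the sum of the 2 single-antibody changes was tested as an interaction on the log2 scale. No member was called by edgeR, and 0% of all genes were. DESeq2 against 0 called 0 members as well (0.033% of all genes), and 4 members had an unadjusted p under 0.05, S100a6, S100a10, Anxa2 and Vim, all below additivity, as did 2.83% of all genes. S100a6 stood farthest from it among the 9, at -1.18 (SE 0.27, edgeR adjusted p = 0.474). The call of S100a6 depended on the settings: without a read minimum it was called by edgeR (-1.18, adjusted p = 2.6e-05, 0.0484% of all genes). With the replicate number as a block, S100a6 was called by edgeR as well (-1.20, adjusted p = 0.00145, 0.0264% of all genes). It was followed by Anxa2 at -0.75 (SE 0.22, edgeR adjusted p = 0.804). S100a11 was at 0.04 (95% interval -0.59 to 0.66). The single antibodies compared directly gave 0 called members by edgeR and DESeq2 (0% of all genes by edgeR and 0.0661% by DESeq2), with Ahnak the 1 member at an unadjusted p under 0.05, where 2.72% of all genes were lower at that level.

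The rest of the families and some functional relatives were taken from lists, written with earlier results of these data known. In CB against isotype edgeR called 1.96% of all genes lower and 2.33% higher, and the median over all genes was 0. Of 12 other S100 genes, 5 reached 30 reads and 0 were called by edgeR or DESeq2 in any of the 7 comparisons, with 0 to 3 at an unadjusted p under 0.05. S100a13 was the 1 with substantial expression, at 85.6 ± 11.8 CPM in isotype and 67.6 ± 13.6 CPM in CB, a log2 fold change of -0.34 (SE 0.16, edgeR adjusted p = 0.327). S100a8 and S100a9, the alarmin pair of neutrophils, had 170 and 162 reads in all, of which 131 and 136 were in the anti-PD-L1 mice. S100a3 had 36 reads in isotype and 152 in CB. The median of the 5 in CB against isotype was 0.74, the value of S100a1 at 128 reads in all. Of 8 other annexins 5 were tested and 0 called by edgeR or DESeq2 in the 7 comparisons, with 0 to 1 at an unadjusted p under 0.05 and a median of -0.21 in CB against isotype. Anxa11 was at -0.47 (SE 0.22, edgeR adjusted p = 0.322) and Anxa7, a broadly expressed annexin, at 0.13 (SE 0.19, edgeR adjusted p = 0.865). Anxa4 had 127 reads in isotype and 70 in CB, and Anxa9 had 9 and 70.

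Of 11 other intermediate filament genes 5 were tested, with a median of -0.31. The nuclear lamin gene Lmnb1 was called lower in CB than in isotype, from 801 ± 31.9 to 647 ± 47.2 CPM (-0.31, SE 0.08, edgeR adjusted p = 0.023). Lmnb2 was at 0.21 (SE 0.23, edgeR adjusted p = 0.76), Krt10 at 0.20 (SE 0.89) and Lmna at -1.44 (SE 1.38) on 401 reads in all, and Krt18 had 40 reads in isotype and 0 in CB. The desmin, Gfap and peripherin genes, which encode the filament proteins closest to vimentin, had 0 reads in all 12 libraries.

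Of 13 genes that tie membrane, filaments and actin together 12 were in the table and tested, with a median of -0.34 (-0.35 with genes at 0 reads in a group set at their bound or left out). In CB against isotype DESeq2 against 0 called 5 of them (6.06% of all genes). The genes called lower by edgeR were 3: Plec, the plectin that crosslinks vimentin, from 98.4 ± 16.6 to 50.2 ± 14.3 CPM (-0.97, SE 0.17, edgeR adjusted p = 0.00104), Flna, the actin crosslinker filamin A (-0.59, SE 0.10, edgeR adjusted p = 8.80e-04), and Msn, the membrane linker moesin (-0.35, SE 0.09, edgeR adjusted p = 0.0309). Flna was also lower than with anti-PD-L1 (-0.45, SE 0.10, edgeR adjusted p = 0.0486). At the other end Rdx, the close relative radixin, was at 0.26 (SE 0.10, edgeR adjusted p = 0.154), Dysf had 49 reads in isotype and 0 in CB, and Myof had 0 in both.

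Of 14 genes that mark effector and memory T cells, 13 had a log2 fold change below 0 in CB against isotype, with a median of -0.56. By edgeR 4 were called, all lower, as were 1.96% of all genes. DESeq2 against 0 called 6 (6.06% of all genes). Emp3 was at -1.19 (SE 0.17, edgeR adjusted p = 9.62e-05), Crip1 at -0.89 (SE 0.15, edgeR adjusted p = 4.12e-04), Itgb7, the β7 integrin chain, at -0.46 (SE 0.11, edgeR adjusted p = 0.0131) and Itgal, the LFA-1 α chain, at -0.36 (SE 0.10, edgeR adjusted p = 0.0411). Crip1 and Itgb7 were also lower than with anti-PD-L1 (-0.74 and -0.50, edgeR adjusted p = 0.0213 and 0.0443), and Emp3 lower than with anti-Lag3 (-0.79, edgeR adjusted p = 0.0225). At the other end Tagln2 was at -0.14 (SE 0.08, edgeR adjusted p = 0.401) and Ly6c1 at 0.75 (SE 0.36, edgeR adjusted p = 0.327). Of 4 receptors for secreted annexin and S100 proteins 2 passed the read minimum and 0 were called by edgeR or DESeq2, with 0 at an unadjusted p under 0.05: Ager had 139 reads in isotype and 113 in CB, and Fpr1 0 and 24.

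**Figure D4:**
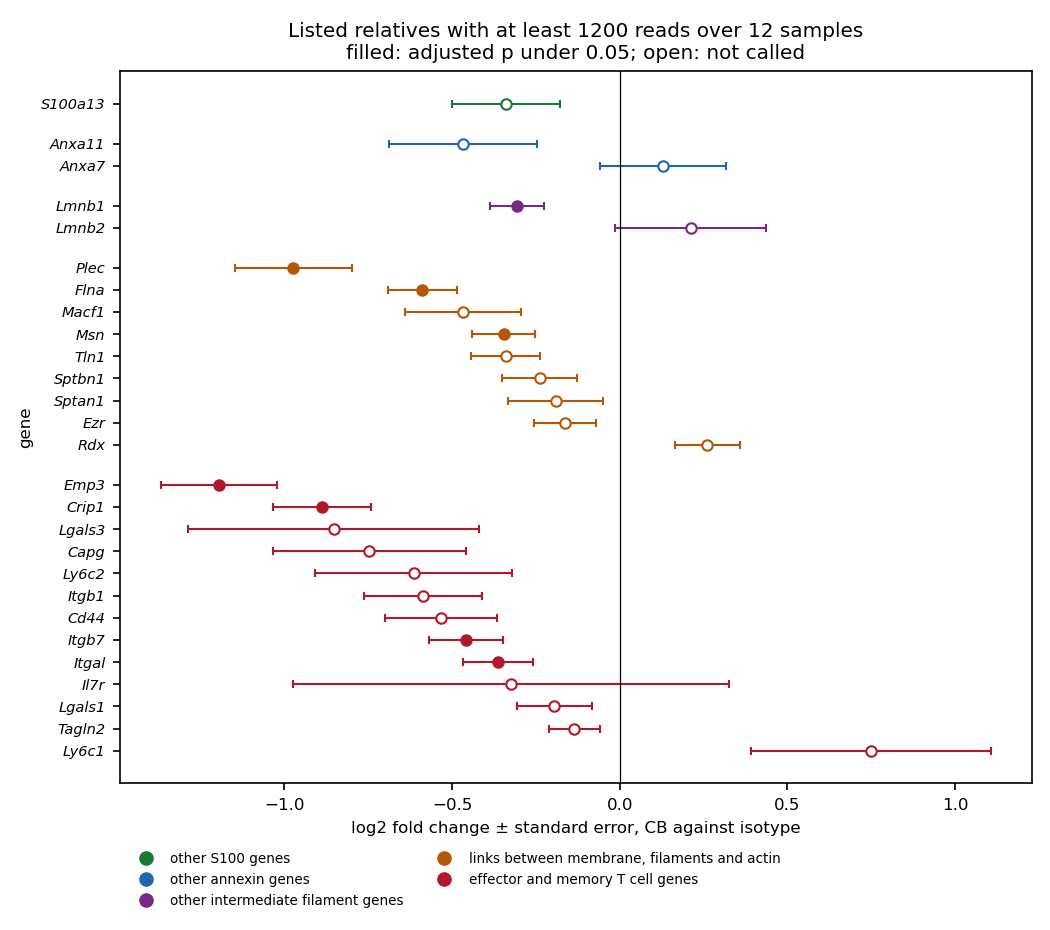
Log2 fold change between CB and isotype with 1 standard error to each side (horizontal axis) for the 27 listed relatives with at least 1200 reads over the 12 libraries (vertical axis), coloured by list. Filled points are called, and all 8 of them lie below 0: Lmnb1, Plec, Flna, Msn, Emp3, Crip1, Itgb7 and Itgal.

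The genes outside the list whose profile over the 12 libraries was nearest to that of Vim included Ms4a4b (root mean square difference 0.13), Rasa3 (0.13) and Itga6 (0.17), among genes with a mean of at least 10 CPM. Their own log2 fold changes in CB against isotype were -1.01, -1.001 and -0.90. This measure is a description over 12 libraries that fall into 4 groups.

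Several members are also expressed by myeloid, endothelial and stromal cells, so marker levels of other cells are given beside the fall in CB. The 10 myeloid markers summed to 8.49 to 13.9 CPM in CB and 12.1 to 18.9 CPM in isotype, and to 24.1 to 27.1 CPM with anti-PD-L1, with 0 of 9 tested called by edgeR or DESeq2, 1 at an unadjusted p under 0.05 and Cd14 at 0 reads. The 7 neutrophil markers reached at most 1.57 CPM in CB and 6.54 CPM in isotype, with Retnlg and Csf3r at 0 reads. The 6 fibroblast and endothelial markers summed to 34.2 to 51.6 CPM in CB and 72.8 to 81.4 CPM in isotype, with Pdgfra at 0 reads and Pecam1 called lower (-0.90, SE 0.18, edgeR adjusted p = 0.0034). The 5 NK markers summed to 13.5 to 20.3 against 25.8 to 35.9 CPM. Most of that sum was Gzma (mean 9.37 CPM in CB and 26.3 CPM in isotype), which was called lower. Of the 5 NK markers 3 were lower in CB and 2, Klrb1c and Prf1, were higher. The 5 erythroid markers summed to 149.6 to 198 against 241 to 449 CPM, with Hbb-bs and Hbb-bt called lower. The 6 B cell markers summed to 342 to 418 against 399 to 451 CPM, the 2 CD8 markers to 25.05 to 33.2 against 40.9 to 45.3 CPM, the 6 dendritic markers to 4.09 to 11.3 against 2.82 to 14.5 CPM, and the 4 platelet markers to at most 1.83 against 1.48 CPM, with 0 genes called by edgeR or DESeq2 in these 4 lists and 1, 1, 0 and 0 at an unadjusted p under 0.05. The 10 CD4 T cell markers were present in all libraries and summed to 4117 to 4140 CPM in CB and 4490 to 4702 CPM in isotype, with Cd4 (-0.50, SE 0.12, edgeR adjusted p = 0.00918) and Cd3e (-0.39, SE 0.11, edgeR adjusted p = 0.0401) called lower. With anti-PD-L1 the fibroblast and endothelial markers summed to 53.8 to 63.7 CPM and the erythroid markers to 170.2 to 217 CPM. The NK markers summed to 16.3 to 23.3 CPM and the CD8 markers to 24.6 to 30.5 CPM in that group. Each of these sums was below every isotype mouse, and the myeloid sum was above every isotype mouse. The fibroblast and endothelial, NK and CD8 sums were mostly Pecam1, Gzma and Cd8b1. With anti-Lag3 all of these sums overlapped isotype. The part of any of these differences in the members' result was not tested.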

How the data were processed

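Members and gene lists were chosen with earlier results of these data known. The deposited counts hold whole reads per gene for the 12 samples. Per the labels and the study's methods, the authors made them from QuantSeq 3′ mRNA libraries (5 ng of RNA, no molecular identifiers, 4 sequencing lanes per sample) with Cutadapt 1.18, STAR 2.6.1a on GRCm38 and featureCounts 1.6.4, keeping uniquely mapped reads. The annotation release and strand setting are not given in the sources used here. A deposited table of regularised log values was not used. PCR copies are not independent molecules, so read depth does not give the number of molecules counted.

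Ensembl identifiers were named through GENCODE M21, which gave 52073 of 56691 gene rows a symbol. The 114 spike-in rows (0.719% to 1.29% of reads) were left out of library sizes and tests. Group means were fitted in edgeR 4.0.16 (R 4.3.3, TMM, quasi-likelihood F test) over the 15138 genes with at least 30 summed reads, and 7 comparisons were made: the 6 pairs of groups and the interaction. Each SE was derived from the test, as the absolute log2 fold change divided by the square root of F. Intervals use that SE and the test's degrees of freedom. Likeness to Vim used log2 CPM with a prior count of 2. Within groups, pairs of libraries differed by a chi-square of 21.7 to 49.6 per degree of freedom, so no library was taken for a copy of another. The labels do not say whether replicates of a group came from 1 litter or day, so p-values measure the spread between these mice. Alternatives were DESeq2 1.42.0 (Wald tests against 0 and against 0.2, the study's threshold, without its shrinkage and s value), DESeq2 size factors, 2 other read filters, the replicate number as a block, fits to the groups compared, and each library left out. The fitting code was tested on simulated data. Named genes were all members, listed relatives called in any comparison or with the 2 highest or 2 lowest fold changes in their list, and the 5 genes nearest to Vim, of which 2 are not reported here.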

Additional observations from a re-analysis of the deposited data

How the results depend on the processing

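Of 1311 values of single members under the alternatives, 0 called values changed sign, 32 lost and 13 gained a call, and 19 uncalled values changed sign, besides 6 for Anxa1. Against isotype, 7 members were called in CB in the main analysis and 6 to 7 with each library left out (394 to 705 of all genes). DESeq2 against 0 called 8 (it added Anxa5, DESeq2 adjusted p = 0.0484, and called 6.06% of all genes), and DESeq2 against 0.2 called 6 (1.54%). CB against anti-Lag3 gave 5 to 6 throughout (41 to 280 of all genes). CB against anti-PD-L1, with 4, was the least stable. It gave 0 with DESeq2 against 0.2 (0.119% of all genes) and 0 with only the groups compared (0.0292%). It gave 5 with DESeq2 against 0 (178 of all genes) or no read filter (0.726%). With each library left out it gave 0 to 4, where 4 to 57 of all genes were called. The member counts in this comparison thus moved with the counts over all genes. Without a read filter 2 members, S100a10 and Vim, were called with anti-PD-L1 against isotype and 1, S100a6, in the interaction. DESeq2 against 0 also called 2 with anti-PD-L1. The cause of these changes was not tested. Of the 18 pairs of same-numbered mice from different groups, 11 deviated together (correlation over 0.1, range -0.0387 to 0.301), among them all 6 pairs of number 1, against 4 of 36 pairs with different numbers, and 8 of the 12 mice correlated best, on average, with their own number. The paper attributed the second principal component of its expression data largely to the batches of sorting. As 7 of the 18 were not over 0.1 and the labels do not say whether the numbers mark those batches, the numbers were not taken as pairs. Any batch effect would thus remain in the spread of the main fit, and the fit with a block is given beside it. With the replicate number as a block, 7 members were called in CB against isotype (5.57% of all genes), 5 against anti-PD-L1 (0.905%), 6 against anti-Lag3 (1.37%), 2 with anti-PD-L1 against isotype (S100a10 and Vim, 0.152%), 1 in the interaction (S100a6, adjusted p = 0.00145, 0.0264%) and 0 elsewhere. With 3 mice a group, S100a4 and Anxa1 were too variable or too sparse for a change of the size seen in the other members to be called.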
